A study of Mus musculus with 2 samples.

Results

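The Id genes Id1, Id2 and Id3 and 2 genes of their E protein partners, Tcf3 and Tcf4, were followed on 2 Affymetrix mouse arrays, 1 of primitive and 1 of maturing haematopoietic stem cells (HSC). All probe sets that the array annotation gives to these symbols were taken, which came to 14 of the 22690 probe sets in the table and 5 of 12393 genes. The members were chosen by symbol after the primitive over maturing ratios of these same arrays were known, so every value below is a description and none is a test. Cells of both groups came from mouse bone marrow, were held in culture for 30 min, received no treatment and were sorted by flow cytometry. The labels do not state strain, age, sex, genotype, number of animals or sorting markers. RNA of each group was turned into a cDNA library by priming on the poly(A) tail, PCR, size fractionation and cloning in a phage vector, and the inserts were transcribed into the labelled cRNA, so an array reports what a cloned library contains. Median signals were 425.4 for primitive and 454.8 for maturing HSC.

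Basic helix-loop-helix (bHLH) factors bind DNA as dimers, with a stretch of basic residues that touches the DNA and a helix-loop-helix that joins the partners. E proteins, encoded by Tcf3 (E2A), Tcf4 (E2-2) and Tcf12 (HEB), are the broadly expressed partners and bind the E-box. Id proteins have the helix-loop-helix without the basic stretch, so that an E protein held by an Id protein cannot bind DNA. In blood formation, E proteins drive lymphoid gene programmes and restrain the cell cycle, and Id proteins oppose them. The symbols need care, since Tcf3 and Tcf4 have also been used as older names of the Wnt factors Tcf7l1 and Tcf7l2, which are different genes.

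All 3 Id genes were higher in primitive HSC, and Tcf4 was lower there. A signal under 441.0, the median of all non-control probe sets on both arrays, was treated as a floor, and where 1 side is at the floor the ratio is a bound, and the true difference can be larger. With this floor Id1 had the largest ratio or bound of the 8852 genes measured above it on at least 1 array. That place depends on the floor, since 4 genes, Id1 included, reached the Id1 ratio with the floor at percentile 25, led by Cd3d at a bound of 5.95, and 2 genes with the floor at percentile 75, led by Ccl5 at 4.64. At the 4-fold threshold Id1 and Id2 were called higher in primitive HSC and no member was called higher in maturing HSC, where 3.45% and 4.69% of all measured genes were called. With 1 array per group there is no spread between replicates to set a difference against, and no p-value is given. As bulk values, they cannot tell fewer cells that make a transcript from less transcript per cell.

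Id1, an early response gene of bone morphogenetic protein (BMP) signalling, was read by the single probe set 1425895_a_at. Its signal was 23121 in primitive and 439.5 in maturing HSC, just under the floor. The primitive signal of Id1 was therefore at least 52.4-fold the maturing one. With a lower floor, at percentile 25, both signals were above it and the log2 ratio of Id1 was 5.72. The nearest gene by signal on both arrays, the kallikrein gene Klk8, had a 22.2-fold ratio.

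Id2, which in blood is known for its part in natural killer and innate lymphoid cells, was read by 3 probe sets. Probe set 1422537_a_at read 3007 in primitive and 93.1 in maturing HSC, a bound of at least 6.82-fold. Probe set 1453596_at read 864.8 and 435.1, at least 1.96-fold. Probe set 1435176_a_at read 589.6 and 43.2, at least 1.34-fold. The direction was thus the same for all 3, while only the brightest passed 4-fold. The call for Id2 rests on that probe set, since the median of the 3 gave a bound of log2 0.97.

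Id3, a further Id gene of lymphoid and stem cells, had 1 probe set, 1416630_at, with a signal of 1569 in primitive and 385.0 in maturing HSC. The bound of 3.56-fold toward primitive HSC fell short of the 4-fold threshold. It passed 2-fold, as did 15.6% of measured genes in that direction. With the floor at percentile 25 both sides were measured and its log2 ratio was 2.03, which passes the threshold. All 5 Id probe sets were therefore above the floor on the primitive array and under it on the maturing array. Among the 22626 non-control probe sets of the array 12.1% had that pattern and 14.1% the opposite one.

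**Figure D1:**
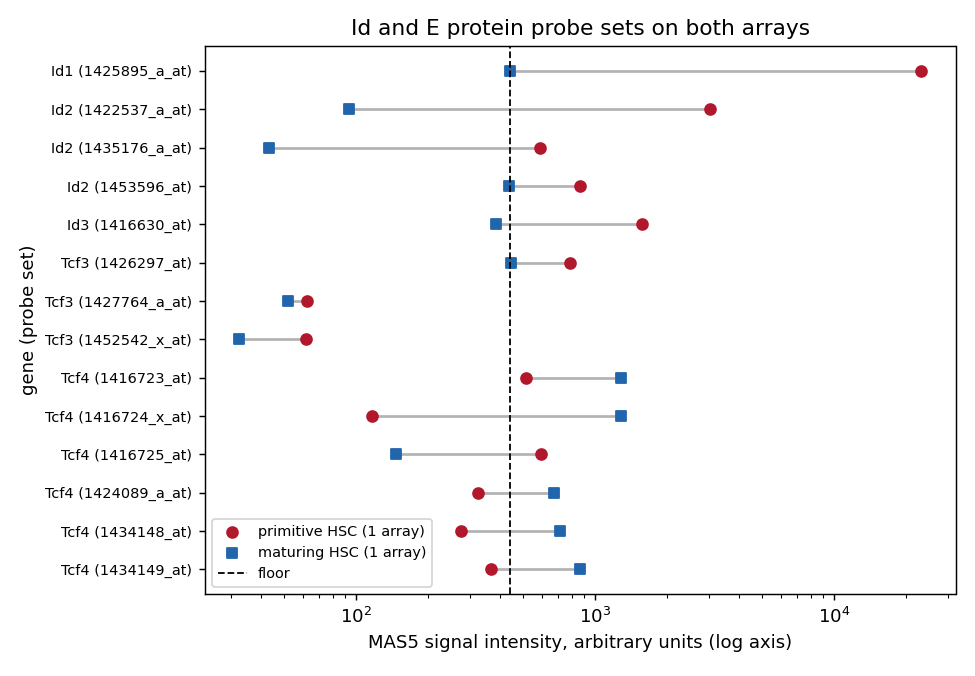
MAS5 signal intensity (log axis) of the 14 probe sets on the primitive array (red circles) and the maturing array (blue squares), 1 array each, with the floor of 441.0 as a dashed line. All 5 Id probe sets have the red circle to the right of the floor and the blue square to its left. In 5 of the 6 Tcf4 probe sets the red circle lies to the left of the blue square.

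Tcf3, which encodes the E proteins E12 and E47, was measured by 1 of its 3 probe sets. Probe set 1426297_at read 787.2 in primitive and 444.0 in maturing HSC, a log2 ratio of 0.83 or 1.77-fold. Its 2 remaining probe sets, 1427764_a_at and 1452542_x_at, read 62.4 and 61.8 in primitive and 52.0 and 32.3 in maturing HSC, all far under the floor. The Tcf3 ratio is close to the SD of 0.82 on the log2 scale between probe sets of a gene, taken over 1318 genes. It turned to -0.15 when the arrays were scaled to their hybridisation controls, so no direction is given for Tcf3.

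Tcf4, the E protein gene known for its part in plasmacytoid dendritic cells, was read by 6 probe sets. The brightest, 1416723_at, read 515.3 in primitive and 1278 in maturing HSC, which is 2.48-fold higher in maturing HSC, and 17.6% of measured genes passed 2-fold in that direction. Probe set 1416724_x_at read 116.3 and 1277, at least 2.90-fold higher in maturing HSC. Probe sets 1424089_a_at, 1434148_at and 1434149_at were under the floor in primitive HSC and read 672.6, 713.4 and 860.3 in maturing HSC, with bounds between 1.52-fold and 1.95-fold. Probe set 1416725_at went the other way, with 594.1 in primitive and 146.2 in maturing HSC. Of the 6, 5 were lower in primitive HSC, and with the floor none reached 4-fold.

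**Figure D2:**
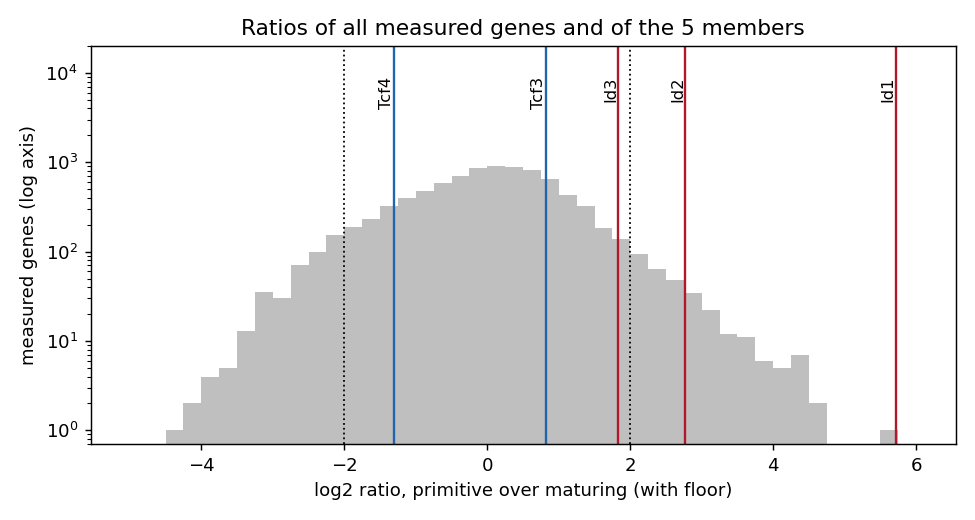
Histogram of log2 ratios, primitive over maturing, of the 8852 measured genes (gene count on a log axis), with vertical lines at Id1, Id2 and Id3 (red) and at Tcf3 and Tcf4 (blue) and dotted lines at 4-fold. Id1 stands alone at 5.71, Id2 is at 2.77, Id3 lies just inside the 4-fold line at 1.83, and Tcf3 and Tcf4 lie at 0.83 and -1.31.

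The scaling of the arrays bears on these directions. The 18 hybridisation control probe sets had a median log2 ratio of 0.97 toward the primitive array, and scaling to them shifted the median of all genes measured on both sides from 0.09 to -0.68. Under that scaling Id1 stood at 4.74, Id2 at a bound of 2.30 and Id3 at 1.05, all still higher in primitive HSC, and Tcf4 at a bound of -2.04. Scaling to the 3 beta-actin control probe sets gave 5.40, 2.61, 1.67 and -1.63 for the same genes, with Tcf3 at 0.51. The Id genes were thus above and Tcf4 below 0 under both of these scalings, after quantile normalization and after lowess.

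**Figure D3:**
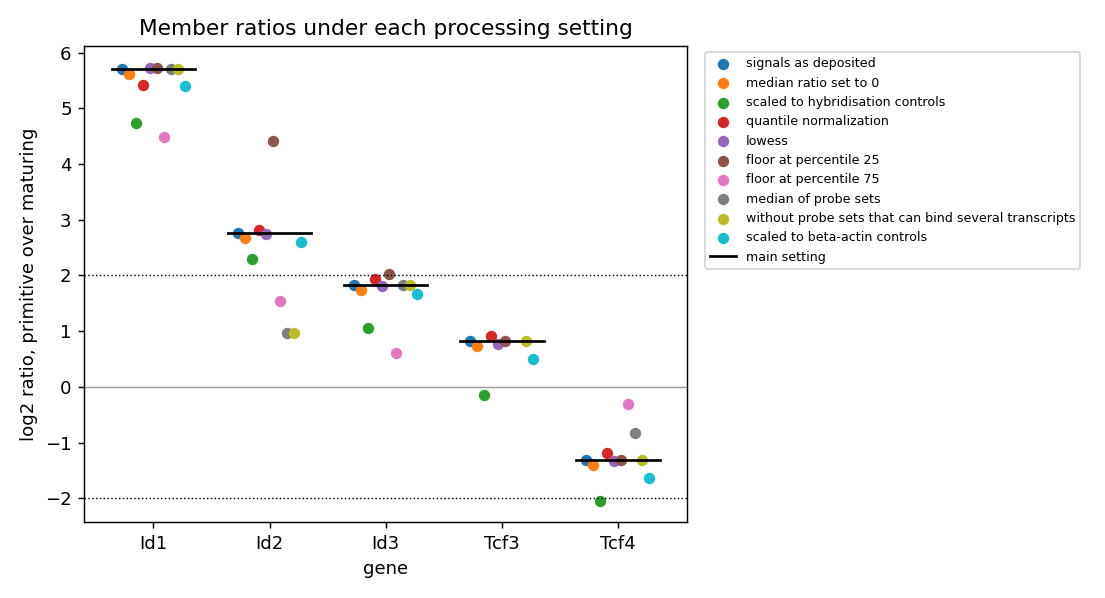
Log2 ratio, primitive over maturing, of each member in the main setting (black bar) and under 10 alternative settings (coloured points; 8 for Tcf3, which was under the floor on both arrays in the others), with dotted lines at 4-fold. Id1, Id2 and Id3 stay above 0 in all of them and Tcf4 below 0, and Tcf3 crosses 0 with hybridisation control scaling. Not every setting could change a sign.

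The promoters of Id2 and Id3 are shown because these genes were higher on the same array and because both E proteins and BMP-activated Smads act through short DNA motifs. Windows from RefSeq's promoter table (GRCm38.p6) were searched for 3 of the 5 members, Id2, Id3 and Tcf3. The table held none for Id1, and Tcf4 was left out of the search. The 250 bases before the start are given 5′ to 3′ on the gene's strand, Id2 from chr12:25096093-25096342 on the minus strand and Id3 from chr4:136143572-136143821 on the plus strand. Capitals mark matches to the E-box (CANNTG) and to a GC-rich motif bound by BMP-activated Smads (GGCGCC).
Id2: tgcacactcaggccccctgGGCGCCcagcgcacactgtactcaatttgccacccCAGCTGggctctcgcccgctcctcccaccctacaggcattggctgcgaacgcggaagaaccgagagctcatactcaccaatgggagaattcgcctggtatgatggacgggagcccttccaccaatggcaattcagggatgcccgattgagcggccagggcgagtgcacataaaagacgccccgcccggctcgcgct
Id3: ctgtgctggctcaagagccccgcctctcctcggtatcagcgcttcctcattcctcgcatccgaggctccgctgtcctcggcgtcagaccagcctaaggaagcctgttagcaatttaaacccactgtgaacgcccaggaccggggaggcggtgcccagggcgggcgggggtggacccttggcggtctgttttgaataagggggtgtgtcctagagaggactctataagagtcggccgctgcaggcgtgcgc
The Id2 window held 1 E-box, with the letters CAGCTG, at position -196 counted back from the start. It also held 1 match to the GC-rich motif, at position -231. The Id3 window held neither motif. The Tcf3 window held 1 E-box, at position -54, and no match to the GC-rich motif. Among all 32851 windows of this length in the table, 66.2% held an E-box of any letters and 9.59% the GC-rich motif. The E-box form of the Id2 window was in 13.0% of them. The form CAGGTG, searched on both strands, was in 17.2% and in none of the 3 member windows searched. All 4 searches cover both strands, the E-box forms overlap with the general E-box, and a match is a run of letters, not a site shown to be used.

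Id4 and Tcf12 complete the Id and E protein families. Id4 had 3 probe sets, of which 1423260_at read 768.8 in primitive and 426.4 in maturing HSC, a bound of at least 1.74-fold. The others read 448.0 and 408.9 in primitive and 324.2 and 142.5 in maturing HSC. Id4 turned to -0.12 with hybridisation control scaling. Tcf12, the remaining E protein gene, was lower in primitive HSC on both of its probe sets. Probe set 1427670_a_at read 1348 in primitive and 3401 in maturing HSC, 2.52-fold higher in maturing HSC, and 1421908_a_at read 412.7 and 1582, at least 3.59-fold. Tcf12 and Tcf4 were thus both lower in primitive HSC, by 2.52-fold and 2.48-fold on their brightest probe sets.

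Measured tissue-restricted bHLH factors, which pair with E proteins in blood stem cells, and members of their complexes lay within 2-fold in the main setting. Tal1, a master regulator of blood stem cell formation, read 2303 in primitive and 2311 in maturing HSC. Its relative Lyl1 read 1161 and 1645, 1.42-fold higher in maturing HSC, and stood at log2 -1.48 with hybridisation control scaling. Of 11 genes in this list 8 were measured, and none reached 4-fold in either direction. Their median log2 ratio was 0.37, against 0.07 over all measured genes, and became -0.42 with hybridisation control scaling. The bridging factor Lmo2 stood at -0.90. It was past 2-fold under each other scaling, from -1.20 after quantile normalization to -1.87 with hybridisation control scaling. The corepressor Cbfa2t3 stood at 0.73, with its 4 measured probe sets from -0.56 to 0.75. Gata1 and Runx1 stood at 0.66 and 0.60, and these 3 ratios turned to -0.25, -0.31 and -0.38 with hybridisation control scaling.

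BMP signalling induces Id genes through Smad1, Smad5 and the shared partner Smad4. Genes of BMP and TGF-beta signalling were split in direction. Of 30 genes listed, 20 were measured, 12 with a ratio above 0 and 8 below, none was called higher in primitive HSC and 1 was called higher in maturing HSC, against 4.69% of all measured genes. Their median was 0.10. With hybridisation control scaling 3 of 20 were above 0 and the median was -0.88. Under it 4 were called higher in maturing HSC, as were 13.5% of all measured genes. With beta-actin scaling 7 of 20 were above 0. The gene called in the main setting was Smad4, with 80.5 in primitive and 3655 in maturing HSC on its brightest probe set, at least 8.29-fold higher in maturing HSC. Its 2 further probe sets read 236.4 against 3197 and 733.3 against 2165, in the same direction. Smad1 read 533.3 and 1435, 2.69-fold higher in maturing HSC, and Smad5 194.2 and 1323, a bound of log2 -1.59. Both probe sets of Smad1 and both of Smad5 were lower in primitive HSC. The Smad corepressor gene Ski read 1599 and 326.8, a bound of 3.62-fold toward primitive HSC.

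The BMP type I receptor gene Bmpr1a read 631.5 and 608.2, and the TGF-beta receptor gene Tgfbr2 2895 and 2733. On their brightest probe sets these receptors lay within 1.06-fold on the 2 arrays, apart from the general shift that hybridisation control scaling brings. A further probe set of Bmpr1a stood at log2 -0.37. Other measured receptor genes differed more. Bmpr1b and Acvr2b had bounds of 1.66-fold and 1.32-fold toward primitive HSC, and Acvr2a a bound of 1.31-fold toward maturing HSC. Acvr1, Tgfbr1 and Tgfbr3 stood at log2 -0.24, 0.16 and -0.09. The coreceptor gene Eng had probe sets in opposite directions, 879.9 against 243.6 and 197.3 against 757.4. Among ligands, Bmp2, Bmp6, Tgfb1 and Tgfb3 were under the floor on both arrays. Bmp4 read 522.6 and 399.3, and Bmp7 read 807.9 and 65.6, at least 1.83-fold higher in primitive HSC. Tgfb2 went the other way, at 273.3 and 727.0, at least 1.65-fold higher in maturing HSC.

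Genes for proteins that bind Id proteins or set their turnover had a median of -0.25 over 11 measured genes, with 1 called higher in maturing HSC and none higher in primitive HSC, against 4.69% and 3.45% of all measured genes. With hybridisation control scaling 0 of 11 were above 0, against 4 of 11 before, and the median was -0.94. Under it 2 were called higher in maturing HSC, as were 13.5% of all measured genes. The gene called in the main setting was Usp1, which encodes a deubiquitinase that stabilises Id proteins. It read 563.2 in primitive and 4605 in maturing HSC, 8.18-fold higher in maturing HSC, but a second probe set read 849.1 and 800.3, and the last, at 71.4 and 200.4, was under the floor. Rb1, the retinoblastoma gene whose protein binds Id2, read 539.6 and 1406, 2.61-fold higher in maturing HSC. Psmd4, a proteasome subunit gene, and Cops5, a signalosome subunit gene, stood at -1.34 (a bound) and -0.69. A second probe set of Psmd4 went the other way, at 0.15.

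Genes known as targets of E proteins went in both directions. Of 26 listed, 17 were measured, 3 were called higher in primitive HSC and 1 higher in maturing HSC, against 3.45% and 4.69% of all measured genes, and their median was 0.45. The balance of calls turned to 1 and 3 with hybridisation control scaling, against 1.0% and 13.5% of all measured genes, and the median was -0.36. It was 1 and 1 with beta-actin scaling, against 2.33% and 7.05%. The called genes higher in primitive HSC were Il7r, Bcl11a and Notch1, of which only Il7r kept its call under both of these scalings. The interleukin-7 receptor gene Il7r read 2993 and 164.4 on 1 probe set, a bound of 6.79-fold toward primitive HSC, and 102.7 and 583.7 on the other, which is the opposite direction. The repressor gene Bcl11a read 4104 and 918.9, 4.47-fold higher in primitive HSC, with a dimmer probe set at 563.2 and 79.6 in the same direction. Its log2 ratio was 1.19 with hybridisation control and 1.84 with beta-actin scaling, under the 4-fold threshold. Notch1 read 2549 and 616.1, 4.14-fold, with a second probe set at 1565 and 1469 that became the brighter one with hybridisation control and beta-actin scaling, at -0.88 and -0.23. Flt3, a cytokine receptor gene of lymphoid-primed progenitors, read 220.2 and 2277, at least 5.16-fold higher in maturing HSC.

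Some lymphoid targets were under the floor on both arrays and others above it. Ebf1, Pax5, Rag1, Rag2 and Ptcra, genes of B and T cell commitment, were under the floor on both. The terminal transferase gene Dntt had signals of 1071 and 3066 on its brightest probe set, lower in primitive HSC. Its 3 measured probe sets ran from -2.07 to -0.005 on the log2 scale. The B cell factor gene Spib had signals of 553.7 and 1302, also lower in primitive HSC. Cd79b stood at log2 -1.01 and Vpreb1 at a bound of -0.03. Igll1, Cd79a and Notch3 went the other way, at 0.78 (a bound), 0.30 and 0.77. Of these, Cd79a and Notch3 turned to -0.67 (a bound) and -0.21 with hybridisation control scaling. The cell cycle inhibitor gene Cdkn1a, which E proteins induce, had 1 probe set at 3981 in primitive and 1374 in maturing HSC, 2.90-fold, and another at 573.1 and 896.2 in the opposite direction. The Notch target gene Hes1 read 2623 and 710.7, 3.69-fold higher in primitive HSC.

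**Figure D4:**
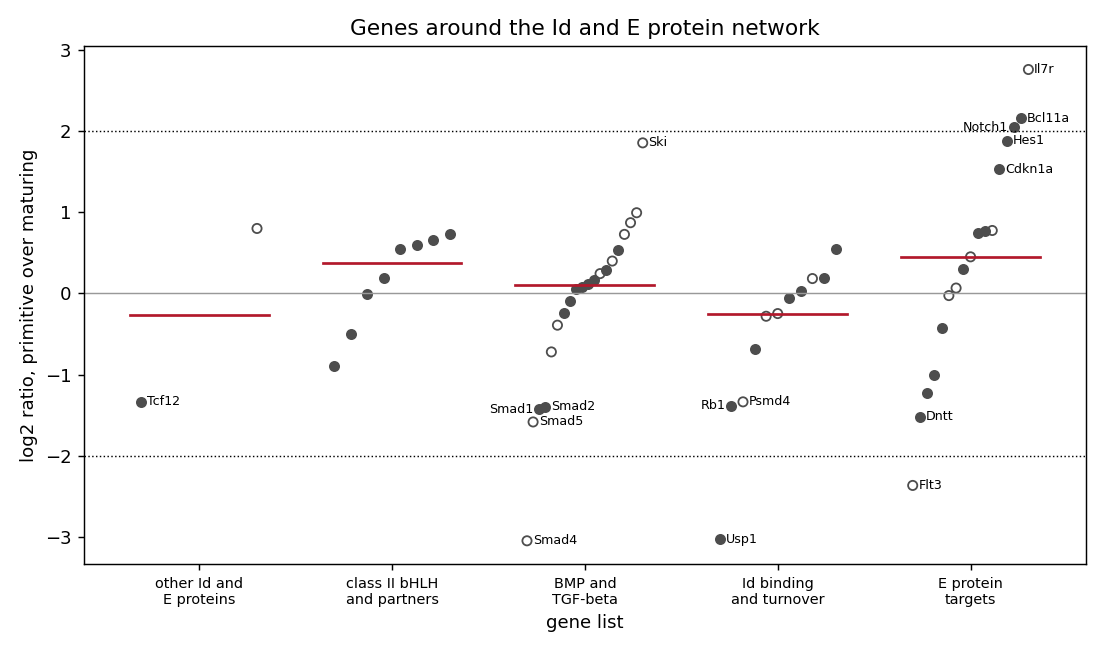
Log2 ratio, primitive over maturing, of measured genes in 5 lists (filled points, above the floor on both arrays; open points, 1 side at the floor, so a bound), with list medians as red bars, dotted lines at 4-fold and names for ratios past 1.3 in size. Smad4 (-3.05) and Usp1 (-3.03) are the lowest points, Il7r (2.76) is the highest, and the class II bHLH list stays between -0.90 and 0.73.

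The genes most like each Id gene were taken as the 3 with the smallest Euclidean distance between floored log2 signals over the 2 arrays, a measure that also depends on how brightly a probe set binds. For Id1 these were Klk8, Gng11 and Glrx2, at distances of 0.99, 1.01 and 1.21, so no gene was close. For Id2 they were Specc1, Zfp639 and Il7r, all within 0.01, and for Id3 they were Tra2a, Apoe and Fzd8, also within 0.01. All 6 of these were at the floor in maturing HSC, which leaves the primitive signal alone to set the distance.

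Markers of stem cells and of other cell types were read on the same arrays. Of the stem cell markers, 10 of 10 genes named on the array were measured. Of these, 6 were higher in primitive HSC, or 3 with hybridisation control scaling. Procr, at 11571 in primitive and 1896 in maturing HSC, and Mllt3, at 7845 and 1529, passed 4-fold, calls lost with hybridisation control scaling. Kit read 3802 and 5053. Cd34 stood at log2 -0.91 and Hlf at -1.25, with another Hlf probe set at -0.002. The stem cell factor gene Meis1 was under the floor in primitive HSC, at 59.1 against 1199. Mecom and Abcg2 were under it in maturing HSC, with bounds of 1.11-fold and 3.84-fold toward primitive HSC. Of natural killer cell markers, 6 of 8 measured genes were higher in primitive HSC, and their summed signal was 14165 in primitive and 11416 in maturing HSC. Klrd1 passed 4-fold there, a call lost with hybridisation control scaling, where 4 of 8 were higher in primitive HSC, and with beta-actin scaling. Of macrophage and dendritic cell markers, 6 of 7 measured genes were higher in primitive HSC, with summed signals of 8298 and 4362, while C1qa, C1qc and Itgax were under the floor on both arrays. Of endothelial and stromal markers, 4 of 8 measured genes were higher in primitive HSC, with summed signals of 4772 and 6100, and Vwf and Plvap were under the floor on both. Of T cell markers 6 of 8 were under the floor on both arrays, Cd3e and Cd4 among them. Cd3d had signals of 8673 and 44.2, higher in primitive HSC, and Cd8a went the other way, at 193.9 and 806.6. B cell markers summed to 2257 and 4023, with Pax5, Ebf1 and Blnk under the floor, and neutrophil markers to 108283 and 57594, with 6 of 10 higher in primitive HSC, or 4 of 10 with hybridisation control scaling. The 2 neutrophil markers past 4-fold, Mpo at 270.1 against 2587 and Csf3r at 394.0 against 2575, were higher in maturing HSC. Of erythroid markers 1 of 2 measured genes was higher in primitive HSC and of megakaryocyte markers 3 of 5. With hybridisation control scaling 5 of 8 macrophage and dendritic cell markers and 2 of 9 endothelial and stromal markers were higher in primitive HSC. The part of these cells in the Id ratios was not tested.

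Gene size also moved with the ratios. Id1, Id2 and Id3 span 1160, 2294 and 1571 bases of the genome and lie in the shortest of 5 equal classes of measured genes, of which 6.11% were called higher in primitive HSC and 2.21% higher in maturing HSC. Tcf4 spans 344539 bases and lies in the longest class, where those shares were 2.26% and 5.03%. Tcf3, with 24436 bases, lies in the middle class, where they were 3.0% and 5.26%. Median log2 ratios were 0.34 in the shortest and -0.03 in the longest class, but they did not fall evenly. The class next to the longest had the lowest median, -0.1, and the largest share called higher in maturing HSC, 6.79%. The part of gene size in the member ratios was not tested.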

How the data were processed

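Primitive and maturing HSC were measured on 1 Affymetrix array each. The authors deposited 1 linear signal intensity per probe set. MAS5 is named in the submitters' processing notes, without a version. The 2% trimmed means of the deposited values were 1000.6 and 1000.4, so the arrays had been set to an equal average and show only relative levels. Detection calls were not used.

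Both arrays were rescaled to 1 trimmed mean, and signals under 441.0 were set to that floor. For each gene the probe set with the highest mean signal was used, among 20380 probe sets with 1 gene symbol. A 4-fold ratio was the threshold. The steps were tested on simulated data. The members and gene lists were chosen with earlier results of these data known. All member probe sets are given, with Id4, Tcf12, Tal1, Lyl1, up to 4 genes of each list by the size of the ratio and the 3 nearest genes of each Id gene, and other list genes were named after their values were seen. Planned comparisons of protein length and sequence were not made, and genomic span was used in place of protein length. Python 3.11.15 was used with matplotlib 3.10.9 for plots, statsmodels 0.14.6 for lowess, scipy 1.17.1 for trimmed means, and pandas 2.3.3 and numpy 2.4.6 for tables.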

Additional observations from a re-analysis of the deposited data

How the results depend on the processing

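With 1 array per group, the number of arrays limits the precision, no replicate could be left out, and signals near the floor carry little weight. No paired analysis was possible because each group has 1 array. A value was taken as moved when it shifted by more than 0.82 on the log2 scale, the SD among a gene's probe sets. Scaling to the hybridisation controls gave Id1 4.74 and Tcf3 -0.15. It called 1 member, Tcf4, higher in maturing HSC, as it did 13.5% of all measured genes. The floor at percentile 75 gave Id1 4.49, Id2 1.55, Id3 0.61 and Tcf4 -0.32. It called 1 member higher in primitive HSC, as it did 3.31% of all measured genes. The floor at percentile 25 gave Id2 4.42. These floors set the bounds directly. Taking each gene's median probe set put Id2 at 0.97, as did dropping probe sets open to binding several transcripts. Both settings called 1 member higher in primitive HSC, as did the 8-fold threshold. The shares of all measured genes called in that direction were 2.81%, 3.36% and 0.75%. The 2-fold threshold called 3 members higher in primitive and 1 higher in maturing HSC, as it did 15.6% and 17.6% of all measured genes. Over 10 alternatives the Id1, Id2 and Id3 ratios stayed above 0, from 4.49 to 5.73, 0.97 to 4.42 and 0.61 to 2.03. Tcf4 stayed below 0. Some of these settings could not change a sign, since a moved floor cannot reverse a ratio and the deposited signals already had near-equal trimmed means. Id1 and Id3 have 1 probe set each, so settings that change the choice of probe set left them as they were. Tcf3 was under the floor on both arrays under the highest floor and when a gene's median probe set was taken. Scaling to beta-actin was chosen after seeing the data.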
